A study of Homo sapiens with 3 samples.

Results

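Transcripts of 6 transcription factors of the renal lineage, PAX2, PAX8, LHX1, HNF4A, EMX2 and WT1, were measured in RCC4, an established line from a human renal carcinoma of the clear cell type, known to lack functional VHL. The 6 genes were chosen by symbol from the 60605 genes of the deposited table, and each matched 1 gene. The study holds 1 group of 3 biological replicates, in which RCC4 cells carrying a lentiviral Cas9 vector received IFN-gamma at 1000 U/mL with TNF at 25 ng/mL for 24 h, with 3 flasks used per replicate. Poly(A) RNA was sequenced from libraries of a directional kit, which keeps the strand, and 29199806, 26264283 and 33458691 reads were assigned to genes in replicates 1, 2 and 3. Untreated cells were not analysed here, so every value is a level in treated cells of a single line and no value is a response to the cytokines. With 1 group there was no test between conditions, and 3 paired libraries could not give a two-sided exact sign-flip p below 0.25.

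PAX2 and PAX8 are close relatives among the paired-box factors, and in the mouse they act together to set up the nephric lineage from intermediate mesoderm. LHX1, a LIM-homeodomain factor, acts with them in the nephric duct and the early nephron, and EMX2, another homeodomain factor, is needed in the mouse for the urogenital tract to form. HNF4A is a nuclear receptor that drives maturation of the proximal tubule, the segment from which clear cell carcinoma is held to arise. WT1 is a zinc finger factor of nephron progenitors and podocytes and a tumour suppressor in Wilms tumour. PAX8 and PAX2 are used by pathologists as markers of renal origin.

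All of 9 listed markers of renal carcinoma were detected, that is, at a CPM (counts scaled to a common library size) of 1 or more in every library. The same limit was passed by 51.4% of protein-coding genes. They included the intermediate filament genes VIM and KRT8, at 528 ± 83.8 and 147 ± 30.9 RPKM (CPM per kilobase of exon; SD, n = 3), the hypoxia target CA9 at 50.5 ± 13.5 RPKM and EPAS1, which encodes HIF-2-alpha, at 22.0 ± 0.86 RPKM. PAX2 and PAX8 are 2 of the 9. The list was chosen with earlier results of these data known, so it is no independent check of the labelled identity.

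Among the 6 factors, 3 were detected. PAX2 was the highest, PAX8 was lower and LHX1 lay just above the detection limit, while EMX2 had 3 reads in all and HNF4A and WT1 were listed at 0 reads in each library. The same limit was passed by 18.6% of all genes and 51.4% of the 19861 protein-coding genes, so a share of 3 in 6 is close to that of protein-coding genes in general. Listing at 0 in every library, found for 2 of the 6, was found for 28.7% of protein-coding genes.

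PAX2 (ENSG00000075891.23; GRCh38 chromosome 10, 100735603 to 100829941, plus strand) had 1368, 1339 and 1598 reads in replicates 1, 2 and 3. These gave levels of 8.07, 7.90 and 7.36 RPKM, with a mean of 7.77 ± 0.371 RPKM (SD, n = 3). The 3 libraries lay close together, with a coefficient of variation of 4.77% against a median of 16.4% over the 10201 detected protein-coding genes. After correction for the trend with GC content described below, the spread of PAX2 was wider, at 7.88 ± 0.832 RPKM. The mean was above that of 77.8% of all protein-coding genes and of 56.8% of the detected ones, so PAX2 was a transcript of middling abundance among the genes that were detected. In these bulk samples, fewer cells with a transcript and less of it per cell cannot be told apart. No part of its exons, 6243 bases in 14 blocks, lies inside another gene of GENCODE 29.

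The sequences upstream of the start sites are shown for PAX2 and PAX8, the factors with the most reads, and for EMX2 and the downstream start site of HNF4A, which had 3 and 0 reads. Each is the 250 bases before a RefSeq start site (GRCh38.p14), written 5′ to 3′ along the gene's strand. Capitals mark matches, on either strand, to 1 of 5 motifs: the homeodomain core TAATTA, the HNF4A element CAAAGTCCA, the WT1 and EGR element GCGTGGGCG, the hypoxia response core ACGTG and the gamma-activated sequence TTCNNNGAA.
PAX2 start site 1 (chr10:100735146-100735395, plus strand): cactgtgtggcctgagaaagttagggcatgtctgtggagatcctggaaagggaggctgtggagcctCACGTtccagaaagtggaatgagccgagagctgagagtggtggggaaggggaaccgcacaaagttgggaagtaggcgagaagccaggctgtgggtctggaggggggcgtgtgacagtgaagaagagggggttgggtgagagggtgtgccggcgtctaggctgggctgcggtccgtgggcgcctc
PAX2 start site 2 (chr10:100745332-100745581, plus strand): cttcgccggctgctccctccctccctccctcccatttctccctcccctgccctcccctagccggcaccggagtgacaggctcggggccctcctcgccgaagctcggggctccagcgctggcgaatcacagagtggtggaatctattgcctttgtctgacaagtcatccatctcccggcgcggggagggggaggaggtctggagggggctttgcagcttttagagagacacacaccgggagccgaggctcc
PAX8 (chr2:113278922-113279171, minus strand): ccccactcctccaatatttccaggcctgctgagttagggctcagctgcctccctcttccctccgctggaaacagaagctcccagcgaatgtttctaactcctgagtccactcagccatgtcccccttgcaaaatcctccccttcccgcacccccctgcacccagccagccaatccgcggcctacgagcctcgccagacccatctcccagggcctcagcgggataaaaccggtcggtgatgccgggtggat
EMX2 (chr10:117542496-117542745, plus strand): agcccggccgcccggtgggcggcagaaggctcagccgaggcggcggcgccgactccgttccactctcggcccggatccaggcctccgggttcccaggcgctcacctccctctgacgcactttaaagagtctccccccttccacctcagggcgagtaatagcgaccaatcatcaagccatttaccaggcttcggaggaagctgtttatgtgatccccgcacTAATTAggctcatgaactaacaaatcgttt
HNF4A start site 2 (chr20:44400989-44401238, plus strand): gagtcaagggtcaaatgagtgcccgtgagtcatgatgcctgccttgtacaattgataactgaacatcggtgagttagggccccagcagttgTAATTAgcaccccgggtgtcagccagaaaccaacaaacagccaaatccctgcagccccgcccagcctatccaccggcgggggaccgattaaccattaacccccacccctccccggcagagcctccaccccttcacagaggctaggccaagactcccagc

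Of the 10 windows that RefSeq start sites gave for 5 of the factors, 5 held a match to any of the 5 motifs: 1 of PAX2, 1 of EMX2, 1 of HNF4A and 2 of WT1. Among the windows shown, the hypoxia response core occurred at 1 place, starting at position -184 from PAX2 start site 1. Of all 35116 windows of this length, 18.5% hold it. PAX2 start site 2 and PAX8 held none of the 5 motifs. EMX2 had the homeodomain core at position -30 from its start site, and HNF4A start site 2 had it at -159, against 4.35% of all windows. The gamma-activated sequence, an element of interferon-gamma responses, is in 6.57% of windows and the HNF4A and WT1 elements are in 0.325% and 0.72%; none of these 3 was in a window shown. GC content was 61.6% and 66.0% in the PAX2 windows, 61.6% in that of PAX8, 60.4% in that of EMX2 and 58.0% in that of HNF4A, beside a median of 58.0% over all windows. Of the windows not shown, HNF4A start site 1 and WT1 start sites 1 and 2 held no match, WT1 start site 3 had the homeodomain core at -33 and WT1 start site 4 had the hypoxia response core at -25. These matches describe the letters of each window, and binding was not measured.

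PAX8 (ENSG00000125618.18; chromosome 2, 113215997 to 113278950, minus strand) had 304, 276 and 381 reads in replicates 1, 2 and 3. Over its full exon length of 7400 bases these gave 1.51, 1.37 and 1.48 RPKM, with a mean of 1.46 ± 0.0731 RPKM (SD, n = 3). The libraries again lay close together, with a coefficient of variation of 5.02%. After correction for the trend with GC content the spread was wider here too, at 1.47 ± 0.152 RPKM. On this scale PAX8 lay above 57.6% of all protein-coding genes but above only 17.6% of the detected ones.

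The level of PAX8 depends on how reads in its antisense partner's territory were counted. PAX8-AS1, a noncoding gene on the opposite strand, spans 113211522 to 113276581 in GENCODE 29. Of PAX8 exon length, 95.7% lies inside that span, introns included, leaving 317 bases outside, and 9.26% lies inside exons of PAX8-AS1. Among the 3177 protein-coding genes with 80% or more of their exon length inside other genes' spans, 8.69% were detected and 72.8% were listed at 0 reads, against 56% detected and 24% at 0 among the 11334 genes with under 5% inside. PAX8 was 1 of the 276 detected genes of the overlapped class and ranked 87th among them by CPM. If all PAX8 reads are divided by the 317 bases outside alone, PAX8 averaged 34.0 ± 1.71 RPKM. That length applies only if reads across the whole span, introns of PAX8-AS1 included, were left out of counting, which was not tested. In RefSeq the span of PAX8-AS1 is shorter (113235527 to 113267023), 30.3% of PAX8 exon length lies inside it, and all PAX8 reads divided by the length outside it gave 2.09 ± 0.105 RPKM. PAX8-AS1 itself had 102, 130 and 195 reads, or 0.273 ± 0.0536 RPKM, with 99.4% of its own exon length inside other spans. Whether counting used the strand was not given in the sources used here, so reads of PAX8 and PAX8-AS1 cannot be told apart.

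**Figure D1:**
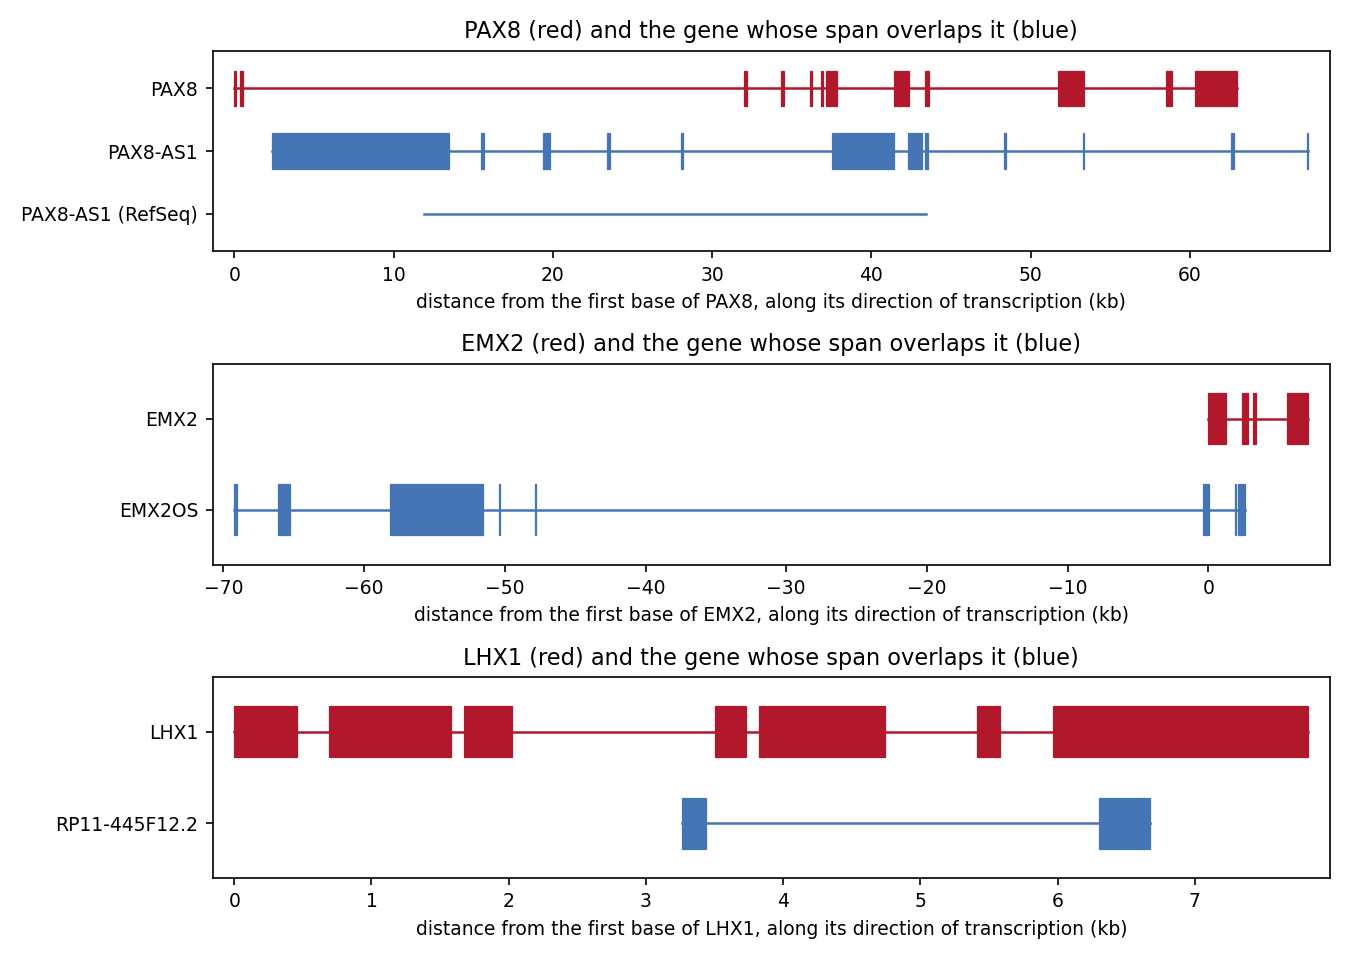
Exons (boxes) and spans (lines) of PAX8, EMX2 and LHX1 in red, and of the gene whose span overlaps each in blue, against distance in kb from the first base of the red gene along its direction of transcription; names are those of GENCODE 29 or the deposited table except for the RefSeq span of PAX8-AS1. For PAX8, 95.7% of exon length lies inside the GENCODE span of its antisense partner, against 43.9% for EMX2 and 41.4% for LHX1. The share inside exons of other genes is 9.26% for PAX8, 7.82% for EMX2 and 7.52% for LHX1.

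Over the full exon length PAX8 was lower than PAX2, with a ratio of -2.34 ± 0.101 on the log2(RPKM + 0.1) scale (a 5.06-fold difference; SD, n = 3), with 1.46 RPKM for PAX8 and 7.77 RPKM for PAX2. The sign was the same in 3 of 3 libraries, at -2.34, -2.44 and -2.24, and the mean exceeded 2 SD. When length was counted outside other spans, the order turned round, with PAX8 higher than PAX2 by 2.11 ± 0.104 (4.33-fold). The order of the paired-box factors thus depended on the length used, while the replicates differed little under each.

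Within 100 kb of PAX2 the protein-coding neighbour was SLF2, with 508, 1254 and 1861 reads and its lowest value in replicate 1. Near PAX8, PSD4 had 130, 100 and 169 reads and IL1RN, an antagonist of interleukin 1, had 0, 0 and 2.

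The other 7 paired-box genes were nearly silent as listed. PAX5, a B cell factor, had 0, 2 and 2 reads, PAX6, a factor of eye and pancreas, had 0, 1 and 0 reads, and PAX1, PAX3, PAX4, PAX7 and PAX9 were listed at 0 in each library. PAX2 and PAX8 were the 2 detected members of a family of 9 and 5 were listed at 0, beside 51.4% and 28.7% of all protein-coding genes.

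LHX1 (ENSG00000273706.5; chromosome 17, 36936785 to 36944612, plus strand) had 31, 50 and 54 reads in replicates 1, 2 and 3. Its levels were 0.234, 0.377 and 0.318 RPKM, with a mean of 0.310 ± 0.0720 RPKM (SD, n = 3), and replicate 1 was the lowest. At 1.14, 1.84 and 1.55 CPM it passed the limit of 1 CPM narrowly, and 1.96% of detected protein-coding genes had a lower mean RPKM. An antisense gene named RP11-445F12.2 in the table, listed at 0 reads in each library, spans 41.4% of LHX1 exon length, and all LHX1 reads divided by the exon length outside it gave 0.528 ± 0.123 RPKM. In this class of overlap, from 40% to under 80%, 59.4% of 1494 protein-coding genes were detected and 15.6% were listed at 0 in every library.

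LHX1 was lower than PAX8, with a ratio of -1.94 ± 0.323 on the log2(RPKM + 0.1) scale (3.83-fold; SD, n = 3), with 0.310 RPKM for LHX1 and 1.46 RPKM for PAX8. The sign was the same in 3 of 3 libraries and the mean exceeded 2 SD, so these neighbours in the order differed by more than the spread between libraries. LHX1-DT, a noncoding RNA that starts 123 bases from LHX1 on the opposite strand (36861674 to 36936661), had 43, 59 and 76 reads, or 0.778 ± 0.135 RPKM, and no overlap with another gene. LHX1 was lower than LHX1-DT in 3 of 3 libraries, with a log2 ratio of -1.10 ± 0.0995 (2.15-fold). The next protein-coding neighbour, AATF, 4262 bases downstream, stood at 41.3 RPKM.

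Of the 12 LIM-homeodomain genes, 2 were detected and 4 were listed at 0 in each library, beside 51.4% and 28.7% of all protein-coding genes. The 2 detected were LHX1 and, at 0.667 ± 0.0694 RPKM, ISL1, a factor of heart and motor neurons. ISL2 averaged 0.489 ± 0.225 RPKM and LHX2 averaged 0.226 ± 0.141 RPKM, above and below LHX1 without passing 1 CPM in every library. The 4 listed at 0 were LHX5, LHX6, LHX8 and LHX9. LMX1B, a podocyte factor, had 0, 0 and 4 reads.

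EMX2 (ENSG00000170370.12; chromosome 10, 117542444 to 117549546, plus strand) had 2, 1 and 0 reads in replicates 1, 2 and 3, no more than the 3 reads that a count of 0 allows. No ratio to another gene was formed from these counts. Its antisense partner EMX2OS, whose span takes in 43.9% of EMX2 exon length, was listed at 0 in each library, and 88.1% of the exons of EMX2OS lie inside other spans. The paralogue EMX1 had 22, 20 and 27 reads, or 0.140 ± 0.00671 RPKM, and was also not detected at 1 CPM.

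HNF4A (ENSG00000101076.18; chromosome 20, 44355700 to 44434596, plus strand) and WT1 (ENSG00000184937.16; chromosome 11, 32387775 to 32435630, minus strand) were listed at 0, 0 and 0 reads. Little of their exon length lies inside other spans, 3.04% for HNF4A and 2.75% for WT1. Among protein-coding genes with under 5% inside, 24% were likewise at 0 in every library. A count of 0 allows up to 3 reads, which is 0.0151, 0.0151 and 0.0118 RPKM for HNF4A and 0.0269, 0.0269 and 0.0210 RPKM for WT1 in replicates 1, 2 and 3, for counting error alone. SDHA, a respiratory chain gene that cells in general express, was also listed at 0 in each library without any overlap, so these zeros are given only as listed. The antisense genes HNF4A-AS1, which lies wholly inside other spans, and WT1-AS were at 0 as well. The neighbourhood of HNF4A held genes with reads, among them FITM2 at 2.53 RPKM, TTPAL at 9.44 RPKM, SERINC3 at 22.4 RPKM and PKIG at 6.67 RPKM, whereas no gene within 100 kb of WT1 had any.

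**Figure D2:**
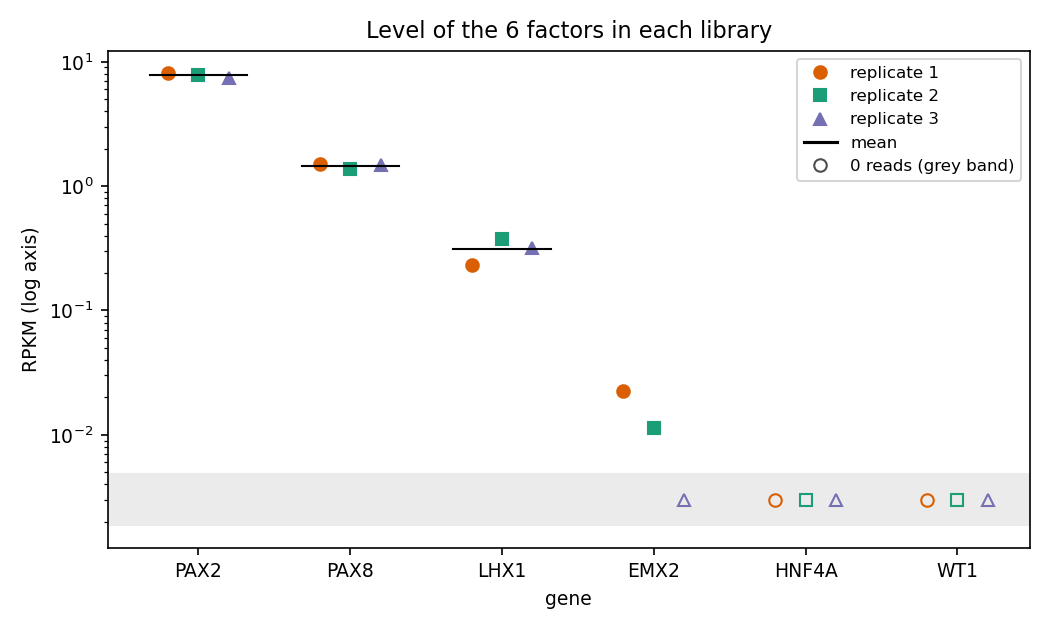
RPKM of the 6 factors in each of the 3 libraries on a log axis, with a black line at the mean where all libraries had reads and open symbols in a grey band for 0 reads. PAX2 at 7.36 to 8.07 RPKM, PAX8 at 1.37 to 1.51 RPKM and LHX1 at 0.234 to 0.377 RPKM do not overlap on the full exon length, and HNF4A and WT1 sit at 0 in each library.

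HNF4A was at 0, while its paralogue HNF4G had 105, 287 and 457 reads, or 1.91 ± 0.996 RPKM, and was far lower in replicate 1. Of the 9 genes of the hepatocyte nuclear factor families 4 were detected, beside 51.4% of all protein-coding genes. Among the 4 were FOXA2, with 85.3% of its exons inside other spans, at 1.99 ± 0.208 RPKM and ONECUT2 at 0.888 ± 0.342 RPKM. FOXA1, FOXA3 and ONECUT1 were listed at 0. With HNF4A, 4 of the 9 were at 0 in each library, beside 28.7% of all protein-coding genes.

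For WT1, the zinc finger factors of the EGR family that bind a similar site were compared. EGR1, an immediate early gene, had 47, 44 and 36 reads, or 0.466 ± 0.119 RPKM. It was the 1 detected member of 5, beside 51.4% of all protein-coding genes detected. EGR2 had 2 reads in each library, and EGR3 and EGR4 were listed at 0. With WT1, 3 of the 5 were at 0 in each library, beside 28.7% of all protein-coding genes.

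Set among 33 other factors of nephron development and identity, PAX2, PAX8 and LHX1 stood above the median. Of these 33 genes, 14 were detected and 10 were listed at 0 in each library, beside 51.4% and 28.7% of all protein-coding genes. Their median was 0.0358 RPKM, beside 0.482 RPKM for all protein-coding genes. High among them were the stromal factor FOXD1 at 19.7 ± 5.56 RPKM, FOXC1 at 16.4 ± 1.05 RPKM and TBX18, a factor of ureteric mesenchyme, at 7.52 ± 3.27 RPKM. PAX2 lay between FOXC1 and TBX18 in mean level, and its 3 values lay inside the range of TBX18 (3.77 to 9.82 RPKM), so the order of PAX2 and TBX18 was not clear of the spread. Factors of nephron progenitors were present in part, with SALL1 at 3.15 ± 0.204 RPKM and SIX2 at 2.13 ± 0.42 RPKM, and EYA1 and OSR1 listed at 0. GATA3, a factor of the collecting duct, and GRHL2, an epithelial factor, were also at 0.

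**Figure D3:**
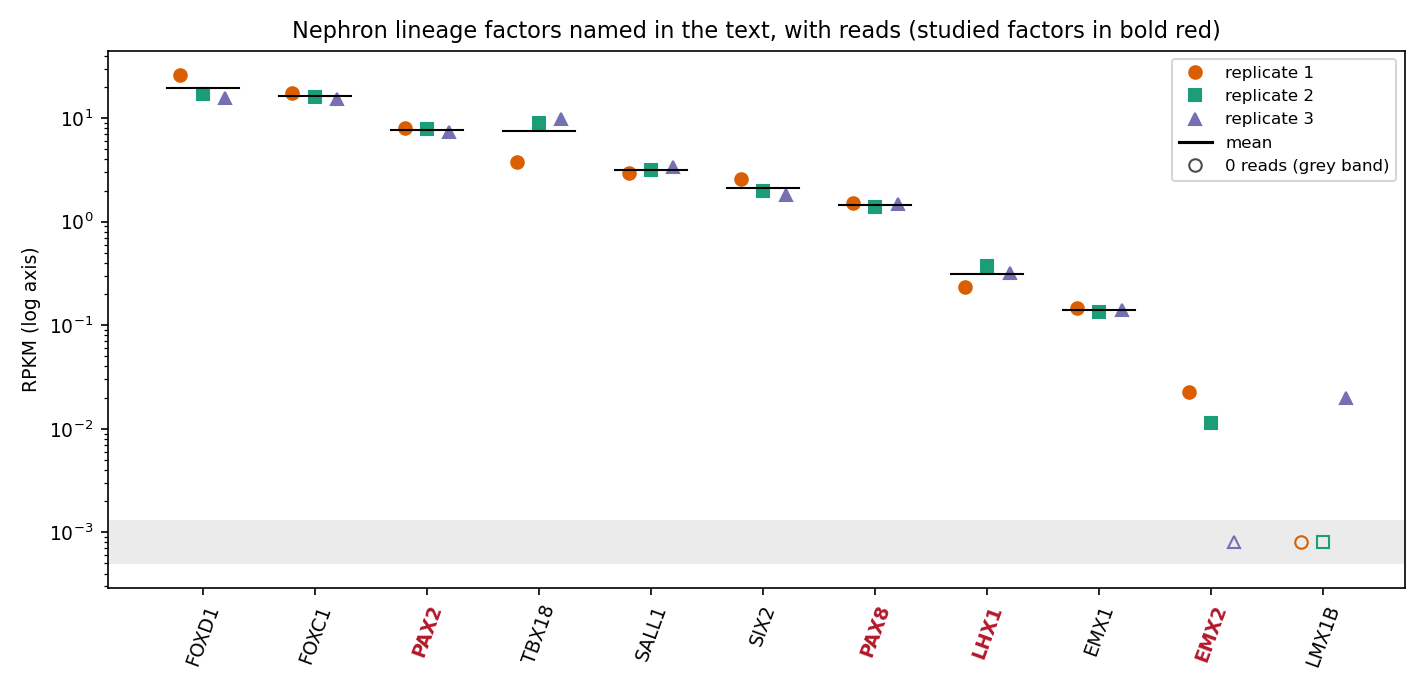
RPKM in each library, on a log axis, of nephron lineage factors named in the text that had reads in at least 1 library, ordered by mean; the studied factors are in bold red, black lines are means and open symbols in the grey band are 0 reads. PAX2 at 7.77 RPKM comes after FOXD1 and FOXC1, and PAX8, LHX1 and EMX2 follow at lower levels.

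Genes known as targets of the factors were read as levels, since a target's level here is no measure of the factor's activity. Of all protein-coding genes, 51.4% were detected and 28.7% were listed at 0 reads in every library. Of 12 targets of PAX2 and PAX8, 4 were detected, and 7 were at 0, so that the median was 0 RPKM, beside 0.482 RPKM for all protein-coding genes. The cell cycle gene CCND1 stood at 34.5 ± 2.24 RPKM, the kidney cadherin CDH16 at 1.52 ± 0.518 RPKM, LHX1 at 0.310 RPKM and the nephron signal WNT4 at 0.302 ± 0.0525 RPKM. RET and GATA3, targets in the ureteric bud, were listed at 0, as were GDNF, SFRP2, WT1 and the thyroid gene SLC5A5; GDNF lies wholly inside other spans. Of 15 targets of HNF4A, with a median of 0.008 RPKM, 3 were detected, and each stood under 1 RPKM: the brush border genes CDHR5 at 0.542 ± 0.148 RPKM and CDHR2 at 0.417 ± 0.132 RPKM, and CUBN, an endocytic receptor, at 0.125 ± 0.00831 RPKM. The apolipoprotein genes APOB and APOA2 were at 0, as were FABP1, PCK1 and G6PC1. Of 10 targets of WT1, with a median of 0.105 RPKM, 4 were detected, led by SYNPO at 24.3, 19.8 and 18.2 RPKM and PODXL at 21.7, 19.9 and 18.4 RPKM in replicates 1, 2 and 3, which shape podocyte foot processes, and BMPER at 1.24 ± 0.249 RPKM; WNT4 was the other. NPHS1 had 1, 0 and 0 reads. IGF2, wholly inside another span, was listed at 0.

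Some listed cofactors were detected for each of the factors examined, as were 51.4% of all protein-coding genes, and no list was tested against that share. For PAX2 and PAX8, 4 of 6 were detected: the corepressors TLE1 at 23.7 ± 2.14 RPKM and TLE4 at 2.07 ± 0.034 RPKM, the histone methyltransferase KMT2D at 9.61 ± 0.923 RPKM and its PAX adaptor PAXIP1 at 4.82 ± 0.266 RPKM. PAGR1 and EYA1 were listed at 0, PAGR1 with all of its exons inside other spans. For LHX1, the bridging factor LDB1 at 34.6 ± 3.03 RPKM, SSBP3 at 15.9 ± 1.62 RPKM and LMO4, which competes for LDB1, at 10.9 ± 0.625 RPKM were the 3 detected of 8, and LMO3, with 95.5% of its exons inside other spans, was listed at 0. For HNF4A, 4 of 6 were detected, among them the corepressor NCOR1 at 7.39 ± 0.743 RPKM and the coactivators NCOA1 at 4.19 ± 0.265 RPKM and NCOA2 at 2.08 ± 0.715 RPKM; the coactivator PPARGC1A was at 0, as was the repressor NR0B2, which lies wholly inside other spans. For WT1, 3 of 5 were detected, with the corepressor BASP1 at 57.2 ± 5.08 RPKM, AMER1 at 4.96 ± 0.637 RPKM and WTIP at 1.69 ± 0.464 RPKM; WTAP and CITED2, both wholly inside other spans, were listed at 0.

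Replicate 1 stood apart from replicates 2 and 3 along the GC content of transcripts, and the members were read against that pattern. Over 20 bins of the 11212 detected genes that had a GC content, replicate 1 was set over the mean of the other libraries as a log2 ratio, whose median was -1.51 in the lowest GC bin and 0.41 in the highest. PAX2, with a GC content of 62.0%, had a ratio of 0.08, beside 0.37 for its bin. PAX8, at 57.1% GC, had a ratio of 0.08, beside 0.34. LHX1, at 57.4% GC, had a ratio of -0.53, beside the same 0.34, and lay under the 5th percentile of its bin, -0.38. The counting standard error of the LHX1 ratio was 0.295 on the log2 scale, from the reads of all 3 libraries, 31 of them in replicate 1. It takes each read as independent, and would be larger if mates of a pair were counted separately. Thus all 3 detected factors lay below the medians of their bins, and by construction as many genes lie below a median as above it. PAX2 and PAX8 lay between the 5th and 95th percentiles of their bins, -0.27 to 0.66 and -0.38 to 0.63. In CPM, replicate 1 was the highest library for PAX2 and PAX8 and the lowest for LHX1. Over all detected genes replicate 1 was above both others in 48.5% and below both in 43%. The part that GC content had in the members' values was not tested.

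**Figure D4:**
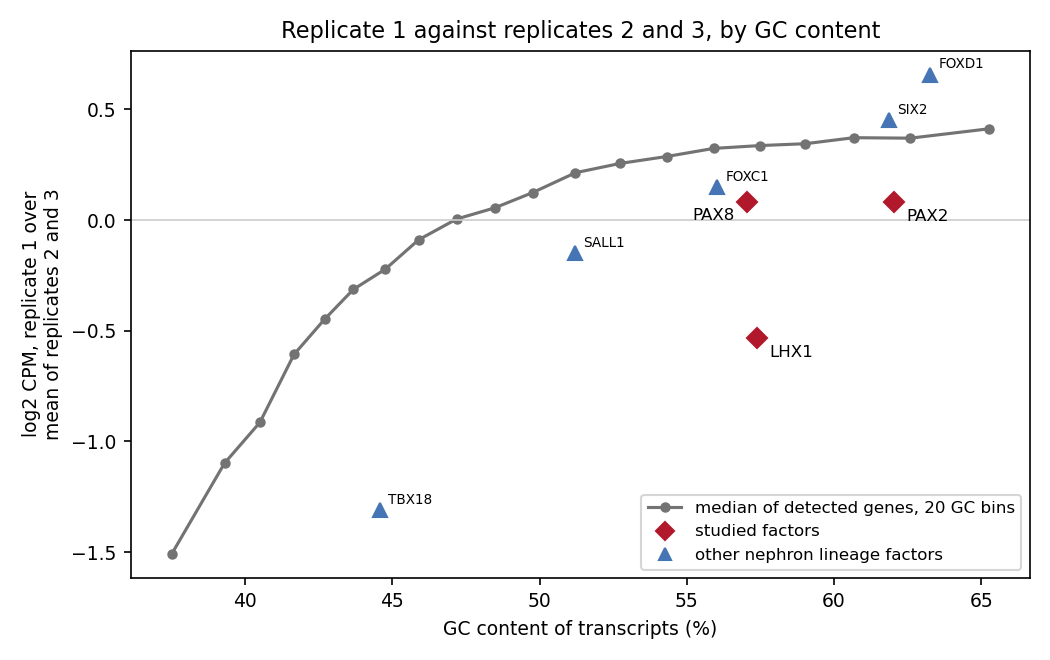
Log2 CPM of replicate 1 over the mean of replicates 2 and 3 against GC content of transcripts (%), with the median of detected genes in 20 bins as a grey line, the 3 detected studied factors as red diamonds and detected other nephron lineage factors named in the text as blue triangles. PAX2 and PAX8 lie at 0.08 and LHX1 at -0.53, all below the line, and TBX18 at -1.31 is the lowest of the triangles.

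The genes whose values were most alike were found by Euclidean distance on log2(RPKM + 0.1) over the 3 libraries, among 10201 detected protein-coding genes. For PAX2 they were CHST11, USP42 and CSRNP2, at distances of 0.047, 0.0517 and 0.0647. For PAX8 they were NPIPA5, which has near-identical copies in the genome, VTI1A and TPP1, at 0.0578, 0.0614 and 0.0833. For LHX1 they were PHACTR2, SSH2 and L3MBTL3, at 0.0751, 0.134 and 0.14. With 3 libraries of 1 group, likeness here means a like level and the same small differences between libraries.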

How the data were processed

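Poly(A) RNA of 3 libraries of 1 group was analysed. The authors used FastQC, cutadapt 1.18, HISAT2 2.1.0 and featureCounts 2.0.0 with build hg38, per the submitters' processing notes; annotation release, strand setting and counting options were not given in the sources used here. Each deposited value is a signal: judged from the values, the authors scaled the counts of each library by a size factor (0.946, 0.971 and 1.24). Within 0.01 of a read, 100% of nonzero values came out whole, so reads were recovered. In replicate 1, 1621 genes had 2 reads and 269 had 1, so mates of a pair may be counted separately, and floors cover counting error only. The scaling of the deposited values was kept as an alternative.

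Reads were scaled by TMM in edgeR 4.0.16 (R 4.3.3) and divided by the union of exons of GENCODE 29, whose release need not be the authors'. Of the identifiers 96.3% matched, holding 99.9% of reads; G6PC was matched as G6PC1, and PAX2-AS1 was not found. A ratio of 2 genes was formed where both had at least 10 reads in a library and none was at 0, and was called past the spread when all signs were the same and the mean exceeded 2 SD. Steps were tested on simulated data. Members, 24 gene lists and pairs were chosen with earlier results of these data known. The rule for named genes takes all members, up to 4 highest and 2 lowest of each list, genes overlapping a member or within 100 kb, and the 3 genes most alike; some genes that this rule takes are not reported here, and other genes named, SDHA among them, and the pair with LHX1-DT were chosen after values were seen. GC trends were fitted by lowess (span 0.3). Start-site sequences are from RefSeq for 5 of 6 members (10 windows); LHX1 is not among them.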

Additional observations from a re-analysis of the deposited data

How the results depend on the processing

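The count of detected factors was 3 at 0.1 CPM, at 10 reads, under each scaling and without each replicate, and 2 at 10 CPM, where LHX1 was not counted. The log2 PAX8/PAX2 ratio was reversed, at 2.11, with the exon length outside other genes' spans. It kept its sign under the other settings, from -1.84 with a pseudocount of 1 to -2.41 with a pseudocount of 0.01, and from -2.39 to -2.29 with a replicate left out; with the RefSeq span of PAX8-AS1, an alternative chosen after seeing the data, it was -1.85. The LHX1/PAX8 ratio kept its sign and stayed past the spread, from -5.78 with the exon length outside other spans to -0.91 with a pseudocount of 1, and from -2.09 to -1.78 with a replicate left out. The level of PAX8 was 34.0 RPKM and that of LHX1 0.528 RPKM with the exon length outside other spans, and that of PAX8 was 2.09 RPKM with the RefSeq span. The ratio of replicate 1 to the others, less the bin median, stayed below 0 for PAX2, PAX8 and LHX1 in each of 5 alternatives. The median of the other nephron lineage factors minus that of protein-coding genes was -2.07 on the log2 scale, -1.14 among detected genes and -3.10 without genes of 80% or more overlap; both alternatives, by construction, take fewer genes. Overlap of its exons with the span of PAX8-AS1 limits PAX8, and read number limits LHX1 and EMX2. No paired analysis was possible because the series has 1 group.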

Other observations

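Markers of kidney cell types other than those described above were uneven. Their counts stand beside 51.4% of all protein-coding genes detected and 28.7% listed at 0 in every library, and were not tested against these shares. Of 7 podocyte markers 4 were detected, among them SYNPO, PODXL and PTPRO at 1.35 ± 0.0515 RPKM, beside 0 reads for TCF21; summed over the list they came to 38.3 to 47.8 RPKM across libraries, nearly all from SYNPO and PODXL. Of 12 proximal tubule markers 3 were detected, CDH6 at 2.30 ± 0.753 RPKM, MIOX at 1.39 ± 0.244 RPKM and CUBN, with 0, 2 and 0 reads each for AQP1 and LRP2 and 0 for SLC22A6 and SLC22A8; the list summed to 3.60 to 4.59 RPKM. None of 12 distal tubule and collecting duct markers was detected, with UMOD at 0, AQP2, of whose exons 89.5% lie inside other spans, at 0 and a sum of 0.0415 to 0.106 RPKM. Of 6 nephron progenitor markers 2 were detected, SIX2 among them, with MEOX1 at 0 and CITED1, which lies wholly inside other spans, also at 0. Of 5 renal stroma markers 2 were detected, FOXD1 and TBX18, with PDGFRB at 0.138 ± 0.0575 RPKM, COL1A2 at 0 and a sum of 25.8 to 30.1 RPKM.

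Markers of cells that the culture should lack were near 0. None of 5 endothelial markers was detected, and they summed to 0.029 to 0.0721 RPKM. Of 6 leukocyte markers 1 was detected, ITGAM at 0.256 ± 0.0457 RPKM, and PTPRC and CD3E were at 0, with a sum of 0.263 to 0.432 RPKM. None of 5 markers of the thyroid, where PAX8 is also expressed, was detected: TG had 0, 0 and 2 reads, and TSHR, SLC5A5 and NKX2-1, which lies wholly inside other spans, were at 0.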
